A study of Mus musculus with 1024 samples.

Results

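The chemokine Cxcl12, its receptors Ackr3 and Cxcr4, the adhesion molecules Vcam1, Icam1, Icam2, Sele and Selp, and the chemokines Ccl2 and Cxcl1 are the 10 genes described here, chosen by name as genes through which vessel wall cells recruit leukocytes. All 10 were found among the 24422 genes of a Smart-seq2 count table of single cells from mouse aorta, each cell sorted into a well of its own. The WT and KO mice were 3 months old, and the labels give both the strain Amotl2flow/flow / Cdh5-RREert /ROSA26-EYFP, which the study's methods describe as floxed Amotl2 alleles with a tamoxifen-inducible Cre under Cdh5, a promoter of endothelial cells, and an EYFP reporter of Cre activity. In KO mice the deletion thus concerned the endothelium. The strain label names the Cre for WT and KO alike, so it does not tell whether the WT mice in fact carried it. EYFP was almost absent from the cells of WT mice. Cells came from a digestion of the luminal side of the vessel after magnetic removal of Cd45+ leukocytes, and the Cd31+Cd45- gate is labelled Endothelial and the Cd31-Cd45- gate DoubleNegative. Mice of each genotype were pooled in 2 preparations, numbered by the labels, and no mouse is named, so the wells of 1 gate, genotype and preparation were summed and the preparation was the replicate (n = 2 per genotype and gate). P-values between genotypes then measure the spread between 2 pools of animals. For the test between gates, WT and KO sums formed 1 group per gate, so its p-values also include the spread between genotypes. The 2 gates of a genotype and preparation came from 1 cell suspension. The main test between gates treated their sums as independent, and pairing by suspension was an alternative only. In preparation 1 each genotype had a plate of its own, where an effect of the plate cannot be told apart from one of genotype, and in preparation 2 they shared a plate.

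Leukocytes leave the blood in steps. Selectins such as P-selectin (Selp) and E-selectin (Sele) let them roll on the endothelium, chemokines held on the cell surface switch on their integrins, and the integrins then bind Icam1, Icam2 and Vcam1 for firm arrest and crawling. Cxcl12 holds and attracts cells that carry Cxcr4, its signalling receptor, while Ackr3 binds Cxcl12 without classical G protein signalling and takes it up for degradation. Ccl2 draws monocytes and Cxcl1 draws neutrophils. In resting endothelium Icam2 is constitutive, whereas Sele and Vcam1 are known for their induction by cytokines through NF-kappaB.

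Of 1024 wells, 784 held at least 20000 gene counts and 500 genes and were used. The Endothelial gate held 235 and 50 WT wells and 302 and 89 KO wells in preparations 1 and 2, and the DoubleNegative gate 42 and 12 WT wells and 40 and 14 KO wells. Sums ranged from 926398 to 94881185 counts and the median well of a sum from 46891 to 252839. The 8 endothelial markers summed to between 14077 and 16620 counts per 1000000 gene counts (CPM) in the Endothelial sums and to between 5.40 and 1216 CPM in the DoubleNegative sums, where the highest value came from WT preparation 2, in which 1 of 12 wells clustered with Endothelial wells. No pair of wells had identical counts. Of the 676 Endothelial wells, 16 clustered with smooth muscle-like or fibroblast-like wells. Leukocyte markers summed to at most 4.66 CPM in any sum, and Lyz2, Itgam and Cd3e were at 0 in all 8 sums. EYFP was found in 76.5% and 85.4% of KO Endothelial wells, in 1.70% and 4% of WT Endothelial wells and in no DoubleNegative well. Amotl2, counted over the whole gene and so also over any exon outside the deleted part, was at 59.9 and 94.0 CPM in WT and 51.9 and 45.7 CPM in KO Endothelial sums (log2 change -0.66, SE 0.32, edgeR adjusted p = 1.00), which does not check the deletion. WT preparation 1 stands apart from the other Endothelial sums. The 15 genes of MHC class II and the interferon-gamma response summed to 10103 CPM there and to 1046, 1261 and 1316 CPM in the other sums, and 155 of its 235 wells fell, with 1 other well, in the cluster whose leading genes were Cd74 and H2-Aa. Values without these wells are given beside the results they move. This cut was chosen after seeing the data and falls almost wholly on 1 WT sum, which had a plate of its own. An order of genotypes that appears after the cut is a description only.

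Cxcl12 (chromosome 6, 117168535 to 117181367, + strand, GRCm38) was spread over all types of wells and concentrated in few of them. In Endothelial wells it reached 131 and 296 CPM in WT and 399.9 and 264 CPM in KO for preparations 1 and 2. The WT preparations thus lay on both sides of the KO preparation 2 value, and the groups overlapped. KO was 3.06 times WT in preparation 1 and 0.891 times WT in preparation 2. Over both, the log2 change was 0.62 (SE 0.38, edgeR quasi-likelihood test, Benjamini-Hochberg adjusted p = 1.00). Without WT preparation 1 the change was 0.13, and without WT preparation 2, the sum of 50 wells, it was 1.36 with an adjusted p of 0.00841, with the lone remaining WT sum assumed to vary like the KO sums. A count of Cxcl12 was present in 44.7% (95% exact binomial interval 38.2 to 51.3) and 72.0% (57.5 to 83.8) of WT wells and in 45.7% (40.0 to 51.5) and 70.8% (60.2 to 79.9) of KO wells. Shares followed the preparation and differed little between genotypes within it. With each well thinned to 20000 counts they were 36.2% and 60.0% for WT and 36.4% and 61.8% for KO. These intervals cover the counting of wells only, and wells of 1 pool are not replicate animals.

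Single wells carried much of the Cxcl12 signal. The upper 5% of wells gave 47.2% and 49.0% of the CPM summed over WT wells and 59.7% and 46.0% over KO wells, against 10.3% to 14.1% for Icam2. One well held 24.4% of all Cxcl12 counts of KO preparation 1 and one well 45.1% of those of WT preparation 2. With wells weighted equally, mean Cxcl12 was 111 and 215 CPM in WT and 313 and 261 CPM in KO. The median well was at 0 in both preparation 1 sums and at 50.5 and 70.6 CPM in WT and KO of preparation 2.

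Clusters were built with the 10 genes left out, and 7 were found. Cxcl12 was highest in the fibroblast-like cluster led by Dcn, Tgfbi and Gsn (1351 CPM, 87.2% of 39 wells) and was at 86.2 CPM in the smooth muscle-like cluster led by Acta2, Myl9 and Myh11 (31.0% of 84 wells). Among the 5 clusters with Cdh5 in most wells, it was at 577 CPM in the 23 wells led by Slc6a6 and Ssu2, 525 CPM in the 248 wells led by Frzb and Thbs1, 198 CPM in the 34 wells led by Fabp4 and Cd36, 157 CPM in the 200 wells led by Gkn3 and Nt5e, and 111 CPM in the 156 wells led by Cd74 and H2-Aa. One well held 47.3% of the counts in the Slc6a6 cluster. At a finer resolution (0.8) the Frzb cluster divided. Of its wells, 184 joined a cluster of 187 wells led by Spon1 and Calcrl with 89.5 CPM, and 64 joined a cluster of 65 wells led by Thbs1, Cxcl12, Emcn, Frzb and Gdf6 with 1365 CPM. Cxcl12 thus stood among the leading genes of these 65 wells although it had no part in the clustering. They also had Ackr3 at 1167 CPM and Selp at 355 CPM.

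**Figure D1:**
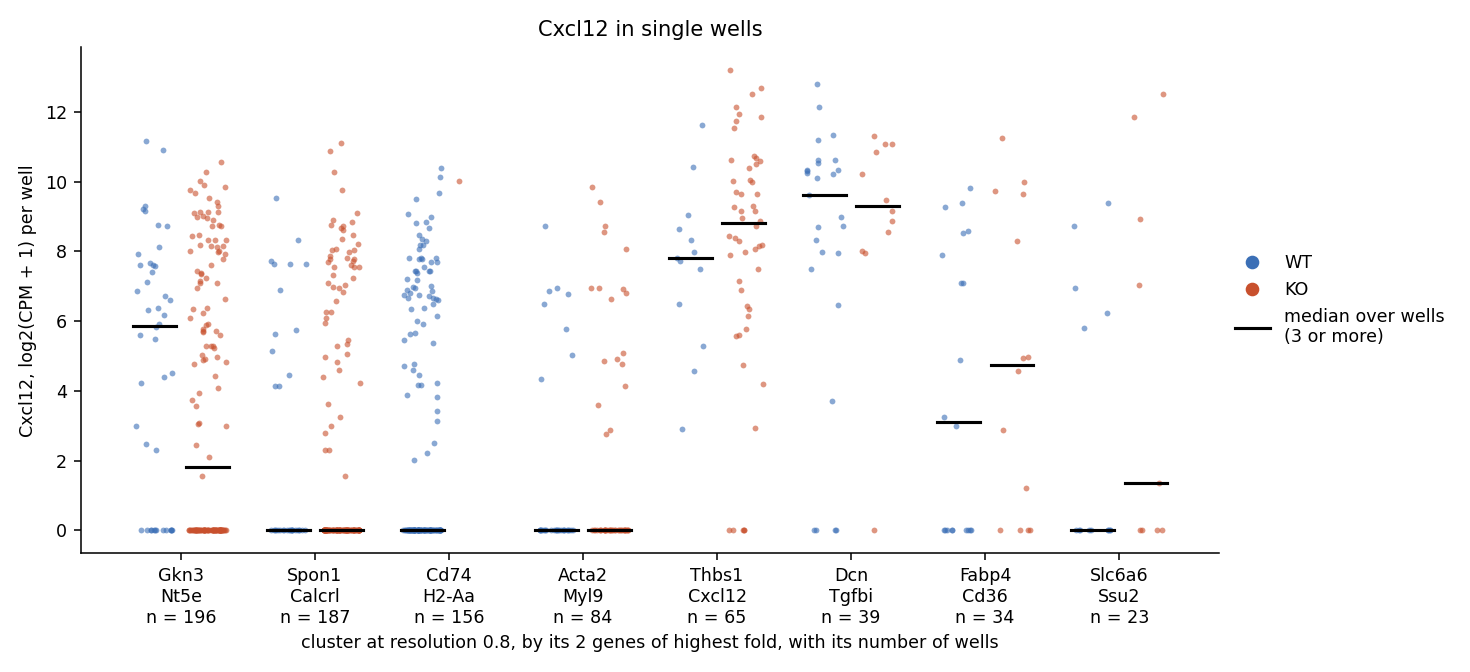
Cxcl12 in each kept well as log2(CPM + 1) by cluster at resolution 0.8, with WT in blue and KO in red, and the median over wells as a bar where 3 or more wells were present. Most wells of the clusters led by Thbs1 and by Dcn lie above the bulk of the other clusters, in which many wells are at 0.

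The 65 wells were unevenly spread over the sums. They made up 1.70% of WT preparation 1 (4 of 235 wells, exact interval 0.466 to 4.30), 18% of WT preparation 2 (9 of 50, 8.58 to 31.4), 12.3% of KO preparation 1 (37 of 302, 8.77 to 16.5) and 16.9% of KO preparation 2 (15 of 89, 9.75 to 26.3). They held 70.7% and 36.2% of the Cxcl12 counts of the KO sums and 2.81% and 73.0% of those of the WT sums. In all other Endothelial wells Cxcl12 was at 129 and 109 CPM in WT and 143 and 209 CPM in KO. The low share was that of the sum with the Cd74 and H2-Aa wells, in which Cxcl12 was at 109.8 CPM. Outside those wells WT preparation 1 had 80 wells, of which 4 were among the 65. Without the Cd74 and H2-Aa wells it rose from 131 to 177 CPM. Within the Frzb cluster, Cxcl12 was at 105 and 394 CPM in WT (21 and 25 wells) and 577 and 289 CPM in KO (159 and 42 wells), and within the Gkn3 cluster at 237 and 126 CPM in WT (22 wells each) and 137 and 250 CPM in KO (114 and 42 wells). The groups overlapped in both clusters. The part of the cluster makeup in the genotype difference of preparation 1 was not tested. Fibroblast markers, of the cells highest in Cxcl12, summed to 245 and 192 CPM in WT and 431 and 235 CPM in KO Endothelial sums, and the 2 fibroblast-like wells of KO preparation 1 held 253 of its 37945 Cxcl12 counts.

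In DoubleNegative wells Cxcl12 was at 923 and 348 CPM in WT and 376 and 110.1 CPM in KO. KO lay below WT in each preparation, at 0.407 and 0.316 times WT, and KO preparation 1 lay above WT preparation 2. The log2 change was -1.41 (SE 0.70, edgeR adjusted p = 1.00), and without WT preparation 2 it was -1.91 with an adjusted p of 0.0494, again with the lone WT sum assumed to vary like the KO sums. The gate mixed cell types, and in preparation 1, but not in preparation 2, fibroblast-like wells were fewer in KO as well. Fibroblast-like wells were 26 of 42 and 1 of 12 in WT and 9 of 40 and 1 of 14 in KO, while smooth muscle-like wells were 16 and 10 in WT and 31 and 13 in KO, and the 7 fibroblast markers summed to 29592 and 2845 CPM in WT and 12796 and 6320.2 CPM in KO. Within fibroblast-like wells of preparation 1 Cxcl12 reached 1452 CPM in the 26 WT wells and 1190.0 CPM in the 9 KO wells, and preparation 2 had a single such well per genotype. Within smooth muscle-like wells it was at 36.7 and 18.8 CPM in WT and 131 and 27.0 CPM in KO. The 12 wells of WT preparation 2 owed 95.1% of their Cxcl12 counts to 1 well. The part of the makeup in the difference was not tested. The genotype change in Endothelial wells was higher than that in DoubleNegative wells by 2.01 on the log2 scale (SE 0.95, interaction term, edgeR adjusted p = 0.957). None of 12729 genes passed this test (0% called), with 657 at an unadjusted p under 0.05 and 49 called by DESeq2.

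Ackr3 (chromosome 1, 90203980 to 90216751, + strand) was expressed by most endothelial wells at steady levels. It was at 770.0 and 791 CPM in WT and 698 and 751 CPM in KO Endothelial sums, so both KO values lay below both WT values, at 0.906 and 0.949 times WT within preparations. The log2 change was -0.10 (SE 0.25, edgeR adjusted p = 1.00), smaller than its error, and leaving out KO preparation 1 turned it to 0.05. Counts were present in 88.9% and 100% of WT wells and 85.8% and 95.5% of KO wells. The clusters differed more than the genotypes. The Fabp4 cluster held the lymphatic endothelial markers Prox1 (45.9 CPM) and Mmrn1 (328 CPM), which were at or near 0 in the other clusters. Prox1 had a count in 1.63% and Mmrn1 in 0.888% of all Endothelial wells. Of the other lymphatic markers, Ccl21a was at 0 in all sums, and Lyve1 was found in 1.48% and Flt4 in 44.5% of Endothelial wells. The markers thus do not make all wells of the cluster lymphatic, and the part of such wells in its levels was not tested. Ackr3 was at 1009 CPM in the Fabp4 cluster, 854 CPM in the Frzb cluster, 720 CPM in the Cd74 cluster and 623 CPM in the Gkn3 cluster. In the Slc6a6 cluster it was at 3.49 CPM, with 16 counts in 6 of 23 wells, although those wells carried Vcam1 at 852 CPM and Icam2 at 782 CPM. The low level was present in each sum that had such wells, at 6.08 and 13.6 CPM in WT (12 and 2 wells) and 1.39 CPM in KO preparation 1 (9 wells). Besides Slc6a6 and Ssu2, these wells were led by Nr4a2, Vcan and Hapln1.

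In DoubleNegative wells Ackr3 was at 452 and 43.5 CPM in WT and 129 and 1.08 CPM in KO. Of the 43 counts of WT preparation 2, 39 came from the well that clustered with endothelial cells. Fibroblast-like wells carried 612 CPM (82.1% of wells) and smooth muscle-like wells 54.7 CPM (16.7%). The Endothelial sums were higher by 2.12 on the log2 scale (SE 0.95), which did not pass (edgeR adjusted p = 0.167). Without WT preparation 1 of the DoubleNegative gate, the sum with the most fibroblast-like wells, the change was 3.52 with an adjusted p of 0.0170. KO against WT in the DoubleNegative gate gave -1.95 (SE 1.42, adjusted p = 1.00), -2.74 with an adjusted p of 0.00123 without WT preparation 2, with the spread taken from the KO sums alone, and 0.62 without WT preparation 1.

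Cxcr4 (chromosome 1, 128588199 to 128592293, - strand) was nearly absent. There were 3 counts in 2 of 676 Endothelial wells, both from KO, and 0 of 108 DoubleNegative wells held one, which at a floor of 3 wells allows 2.78% of wells with a count and sets no limit on cells that express the gene. Ligand and scavenger were thus measured together without the signalling receptor in these wells at this depth. In wells thinned to 20000 counts, Cxcl12 and Ackr3 were both present in 33.2% and 58.0% of WT and 31.8% and 59.6% of KO Endothelial wells. Ackr3 alone was found in 53.2% and 38.0% of WT and 49.7% and 36% of KO wells, and Cxcl12 alone in 2.98% and 2% of WT and 4.64% and 2.25% of KO wells. In the DoubleNegative gate Cxcl12 alone made up 28.6% and 8.33% of WT and 25% and 21.4% of KO wells. Across wells of a sum the levels of the pair went together little, with a mean Spearman's rho of 0.07 over the 4 Endothelial sums (range -0.05 to 0.19).

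**Figure D2:**
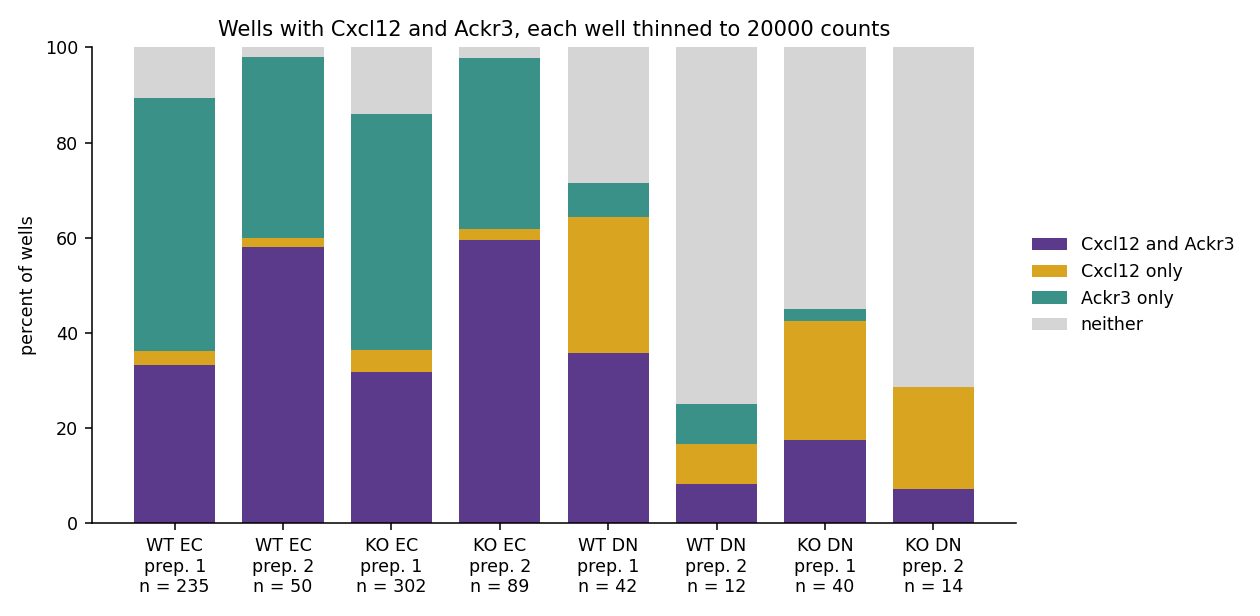
Percent of wells with a count of Cxcl12 and Ackr3, of either or of neither, in each sum of the Endothelial (EC) and DoubleNegative (DN) gates, after each well was thinned to 20000 counts. In the 4 Endothelial sums the wells with Ackr3 alone outnumber those with Cxcl12 alone, and in 3 of the 4 DoubleNegative sums Cxcl12 alone is the larger share.

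The adhesion molecules of firm arrest were high in the endothelium of both genotypes. Per kilobase of exon, so that genes of different length can be compared, the mean level over the 4 Endothelial sums was 557 CPM for Icam2, 225 for Ackr3, 134 for Vcam1, 99.6 for Icam1, 81.5 for Selp, 35.7 for Cxcl1, 33.4 for Cxcl12 and 9.52 for Sele. The ranges over sums of Vcam1 (103 to 149) and Icam1 (94.3 to 109.9) overlapped, although Vcam1 was the higher in each of the 4 sums. Those of Cxcl1 (24.2 to 49.4) and Cxcl12 (16.01 to 48.9) overlapped too, and their order differed between sums. By this measure Icam2 and Ackr3 lay above, and Sele below, the other genes named here in every sum. The length was that of all annotated exons of a gene together, which can exceed that of 1 transcript. Without division by length the mean of Vcam1 (1189 CPM) was above those of Icam2 (1061 CPM) and Ackr3 (752 CPM), so the order depends on the length used.

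**Figure D3:**
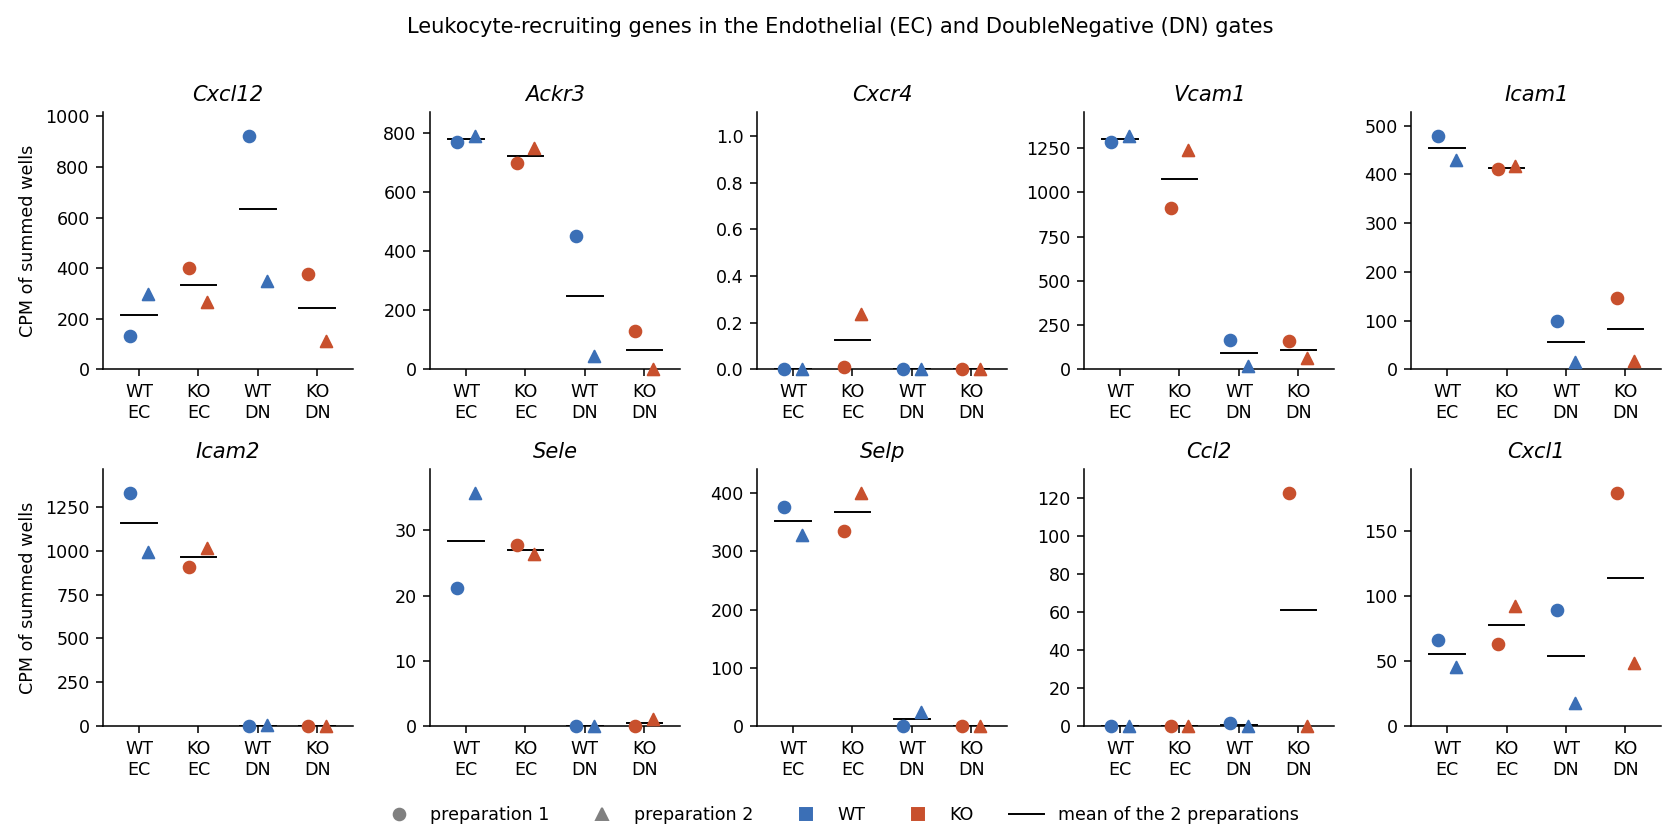
Level of the 10 genes in CPM of summed wells, by genotype and gate (EC, Endothelial and DN, DoubleNegative), with circles for preparation 1, triangles for preparation 2 and bars for the mean of both. Icam2, Vcam1, Icam1, Selp and Sele are above all DoubleNegative values in every Endothelial sum, and Cxcl12 and Cxcl1 overlap between gates.

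Icam2 (chromosome 11, 106377656 to 106388075, - strand), the constitutive ligand of leukocyte integrins, was at 1329 and 991 CPM in WT and 908 and 1017 CPM in KO. The groups overlapped, with KO at 0.683 and 1.03 times WT (log2 change -0.25, SE 0.27, edgeR adjusted p = 1.00). It was the most evenly spread of the genes, with a count in 95.03% to 100% of wells of each sum even after thinning. WT preparation 1 was the highest sum, and without its Cd74 and H2-Aa wells it fell from 1329 to 976 CPM, within the range of the other 3 values. Those wells carried 1489.7 CPM against 966 and 983 CPM in the Frzb and Gkn3 clusters. In the DoubleNegative gate Icam2 had 5 counts, all from the well that clustered with endothelial cells. In the other 107 wells it was at 0. The 660 Endothelial wells in clusters with Cdh5 in most wells were at least 6419-fold higher, with a floor of 3 counts over the 107 wells together. Both sets of wells were picked by cluster, which left out the only DoubleNegative well with a count. With all wells kept, the mean of the Endothelial sums was 839 times that of the DoubleNegative sums. In single DoubleNegative sums of preparation 2, 3 counts are worth 3.04 and 3.24 CPM, so that only a lower fold can be shown there. The edgeR log2 change between gates, with all wells kept, was 11.26 (SE 1.20, adjusted p = 0.000112).

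Vcam1 (chromosome 3, 116109949 to 116129688, - strand), which binds the integrin VLA-4 of monocytes and lymphocytes, was at 1283 and 1319 CPM in WT and 913 and 1240.4 CPM in KO. Both KO values were below both WT values (log2 change -0.25, SE 0.28, edgeR adjusted p = 1.00). The order changed when the Cd74 and H2-Aa wells, in which Vcam1 was at 1483 CPM, were left out. WT preparation 1, which held almost all of them, was then at 847 CPM, the lowest of the 4 sums. Leaving out KO preparation 1 turned the change to 0.04. Within the Frzb cluster WT was at 1567 and 1402 CPM (21 and 25 wells) and KO at 964 and 1072 CPM (159 and 42 wells), without overlap. Within the Gkn3 cluster WT was at 1156 and 1235 CPM and KO at 921 and 1387 CPM, with overlap. No test was made within clusters, and 2 values per genotype can separate by chance. In the whole WT Endothelial sums 1 well held 15.5% and 19.9% of the Vcam1 counts of preparations 1 and 2. Between gates the difference was clear. DoubleNegative sums held 163 and 19.2 CPM in WT and 158 and 64.8 CPM in KO, and the Endothelial wells were higher by 3.40 on the log2 scale (SE 0.56, edgeR adjusted p = 0.00157). Fibroblast-like wells had 348 CPM, above the 244 CPM of the endothelial Fabp4 cluster, where 41.2% of wells had a count against 91.0% to 96.2% in the Frzb, Gkn3 and Cd74 clusters.

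Icam1 (chromosome 9, 21015985 to 21028817, + strand), the ligand of LFA-1 and Mac-1, was at 479 and 429.8 CPM in WT and 411 and 417 CPM in KO. Both KO values lay below both WT values, by less than the standard error of the fit (log2 change -0.12, SE 0.25, edgeR adjusted p = 1.00), and without the Cd74 and H2-Aa wells WT preparation 1 was at 364 CPM, the lowest. With wells thinned to equal depth before summing, the change was 0.11. The Endothelial wells exceeded the DoubleNegative wells, which held 98.9 and 14.2 CPM in WT and 146 and 17.3 CPM in KO, by 2.48 on the log2 scale (SE 0.63, edgeR adjusted p = 0.0172). Among wells of at least 100000 counts the difference was 2.58 with an adjusted p of 0.0769. Fibroblast-like wells had 326 CPM, more than the 197 CPM of the Slc6a6 cluster. In the Cd74 and H2-Aa wells, which were led by MHC class II genes and the interferon-inducible Igtp, Icam1 was at 531 CPM against 463 and 392 CPM in the Frzb and Gkn3 clusters, and Sele at 22.2 CPM against 39.9 and 7.59 CPM.

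The selectins differed in kind. Selp (chromosome 1, 164115264 to 164150026, + strand), stored in endothelial granules and brought to the surface on activation, was at 377 and 328 CPM in WT and 334 and 400.0 CPM in KO, overlapping (log2 change 0.08, SE 0.27, edgeR adjusted p = 1.00). Without the Cd74 and H2-Aa wells, almost all of them from WT preparation 1, that sum was at 247 CPM. Both KO values were then above both WT values. The nearest of these were close, at 334 CPM in KO preparation 1 and 328 CPM in WT preparation 2. With all wells kept, the median well had the other order, at 253 and 321 CPM in WT and 235 and 237 CPM in KO. Selp was found in 84.7% and 96.0% of WT and 81.5% and 88.8% of KO wells. The KO preparation 2 sum held 1 well at 16979 CPM, and 1 well gave 14.3% of its counts. Selp was at 436 CPM in the Cd74 cluster, 385 in the Gkn3 cluster, 328 in the Frzb cluster and 274 in the Fabp4 cluster. In the Slc6a6 cluster it was at 34.1 CPM (17.4% of wells), and 72.4% of those counts came from 1 well, so that these wells were low in both Ackr3 and Selp. Of 26 DoubleNegative counts, 25 came from the well among the endothelial clusters (log2 change between gates 6.29, SE 1.44, edgeR adjusted p = 0.0102). The gene overlaps 2 annotated genes on the other strand, Gm16548 and Gm16587, as Vcam1 overlaps Gm43109 and Icam1 overlaps Gm47079, and the strand setting of the counting is not given in the sources used here.

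Sele (chromosome 1, 164048234 to 164057677, + strand), the cytokine-induced selectin, was at 21.1 and 35.7 CPM in WT and 27.8 and 26.3 CPM in KO, overlapping (log2 change -0.07, SE 0.40, edgeR adjusted p = 1.00). These sums rested on few wells: 14 and 7 in WT and 16 and 12 in KO, or 5.96% and 14% against 5.30% and 13.5% of wells. In each sum 1 well held between 30.9% and 71.1% of the counts, and the highest wells reached between 1090.1 and 1972 CPM. Sele was found in 33.8% of the 65 wells of the finer cluster led by Thbs1 and Cxcl12, and in 1.604% of the 187 wells led by Spon1. By sum the first share was 50% and 44.4% of the WT wells and 24.3% and 46.7% of the KO wells of preparations 1 and 2, and the second 0 of 17 and 0 of 16 WT and 1.59% and 3.70% of KO wells. Both clusters were drawn on these cells, so no test was made. The DoubleNegative gate held 1 count of Sele (log2 change between gates 8.47, SE 1.16, edgeR adjusted p = 0.000516).

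Cxcl1 (chromosome 5, 90891241 to 90893115, + strand), the neutrophil chemokine, was at 66.4 and 45.4 CPM in WT and 63.4 and 92.7 CPM in KO, overlapping, at 0.954 and 2.04 times WT (log2 change 0.51, SE 0.34, edgeR adjusted p = 1.00). Without the Cd74 and H2-Aa wells WT preparation 1 was at 48.3 CPM, and both KO values were above both WT values. One well gave 40.8% of the counts of KO preparation 2, and with wells thinned to equal depth the change was -0.39. The share of wells with a count was 21.3% and 36% in WT and 18.2% and 28.1% in KO. It was at 95.8 CPM in the Gkn3 cluster, 74.6 in the Cd74 cluster, 43.2 in the Frzb cluster and 3.50 in the Fabp4 cluster. Fibroblast-like wells carried 368 CPM in 46.2% of wells and smooth muscle-like wells 2.06 CPM. The difference between gates did not pass the test (log2 change -0.48, SE 0.55, edgeR adjusted p = 0.637): the DoubleNegative sums were at 89.8 and 18.2 CPM in WT and 179.7 and 48.6 CPM in KO. Promoters were taken from RefSeq on GRCm38.p6 as 250 bases before to 50 after the transcription start, and 7 of the 10 genes had an entry (all but Vcam1, Icam2 and Ccl2). A kappaB site, the element that NF-kappaB binds, was searched on both strands as GGGRNNYYCC (R for A or G, Y for C or T, N for any base). This pattern was found in the Cxcl1 promoter alone of these 7, against 8.46% of all 32851 promoters, and the stretch around it is shown. Sites that differ from the pattern or lie outside these bases would be missed, so the other genes may have such sites. The window lies at chr5:90891149-90891208 on the + strand, with the first base of the site, in capitals, 71 bases before the start. The site is near palindromic, and the other strand matched 1 base further on.
Cxcl1: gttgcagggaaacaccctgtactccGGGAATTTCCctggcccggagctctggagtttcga
A match of letters does not show binding.

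Ccl2 (chromosome 11, 82035571 to 82037453, + strand), the monocyte chemokine, was not an endothelial transcript here. It had 1 count in 676 Endothelial wells. In the DoubleNegative gate it was at 1.51 and 0 CPM in WT and 123 and 0 CPM in KO, from 5 wells in all. Of these, 4 were fibroblast-like and 1 was smooth muscle-like, and 1 fibroblast-like KO well held 73.2% of the counts of its sum. The 9 fibroblast-like wells of KO preparation 1 had Ccl2 at 525 CPM, Cxcl1 at 766 CPM, Icam1 at 626 CPM and Vcam1 at 660.0 CPM, and the 26 of WT preparation 1 had them at 2.41, 143, 158 and 208 CPM. Of the counts of these 9 wells, the highest well for each gene held 73.8% for Ccl2, 57.9% for Cxcl1, 38.0% for Icam1 and 30.7% for Vcam1. With 1 sum per genotype on separate plates this comparison has no replicate and no test. The genes raised by tissue dissociation (Fos, Jun, Egr1 and 12 others) summed to 14266 CPM in the KO and 8833 CPM in the WT DoubleNegative sum of preparation 1. In preparation 2 they summed to 4711 CPM in KO and 7659 CPM in WT. These values are over all wells of the gate, smooth muscle-like wells included, and not over the fibroblast-like wells compared here. The part of the dissociation genes in the difference was not tested.

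**Figure D4:**
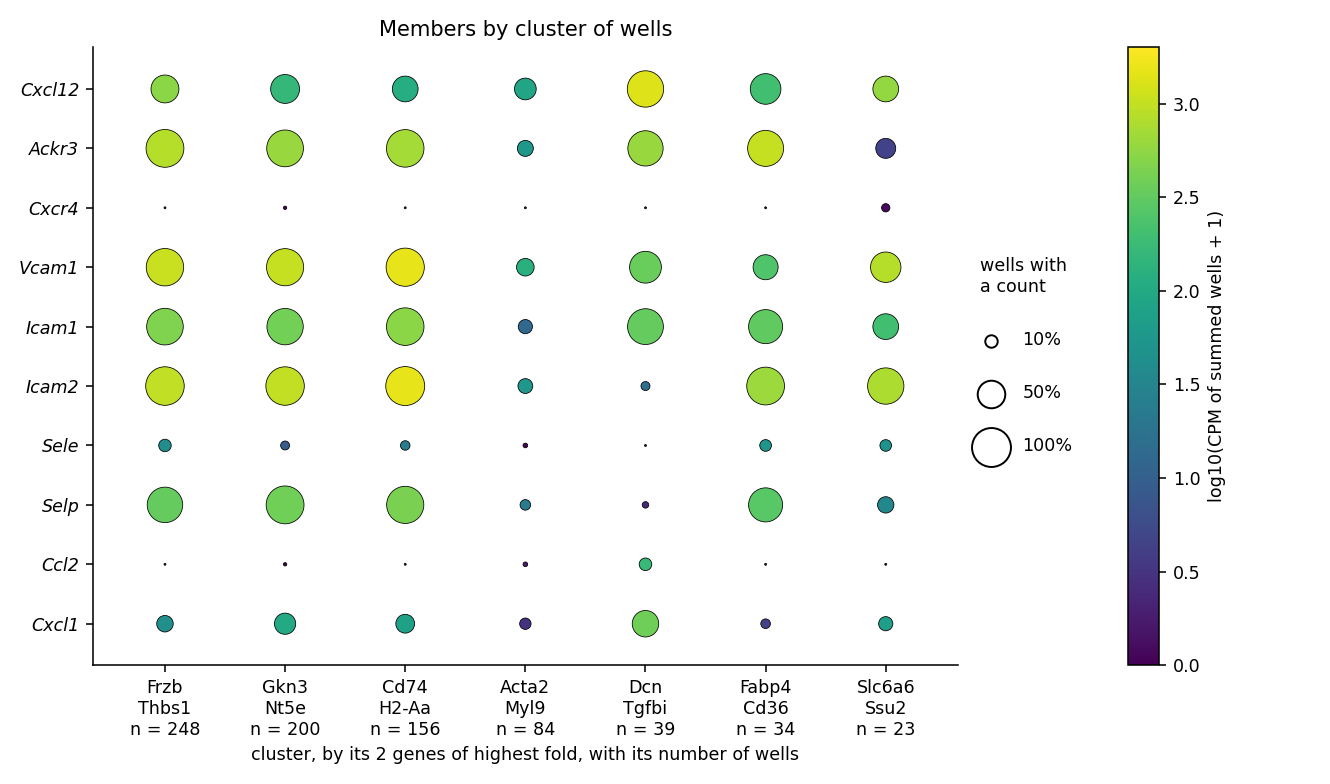
The 10 genes (rows) in the 7 clusters of wells (columns, named by their 2 genes of highest fold), with dot area for the percent of wells with a count and colour for log10(CPM + 1) of the summed wells. Ackr3 and Selp are low in the Slc6a6 cluster, and Cxcl12, Cxcl1 and Ccl2 are highest in the Dcn cluster.

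Across genotypes, 8 of the 10 genes had enough counts for a test in Endothelial wells and none of them passed. This does not show that levels were alike, since with 2 sums per genotype edgeR did not call modest changes in simulated data. Neither did any of the 12702 genes tested (0% called, with 468 at an unadjusted p under 0.05). DESeq2 called 55 genes and edgeR with the preparation as a block called 1, and no gene of the 10 was among either. The median log2 change was -0.08 over the 8 genes, of which 3 were above and 5 below 0, and 0.00 over all genes tested. In the DoubleNegative gate 5 of the 10 could be tested and none passed, as for all 10544 genes (0% called, with 275 at an unadjusted p under 0.05 and 6 in DESeq2). A missed threshold says nothing on whether levels differed in this gate, where edgeR did not call strong changes in simulated data either. Vcam1 changed by 0.25 (SE 0.88), Icam1 by 0.48 (SE 1.03) and Cxcl1 by 1.03 (SE 0.84) there, each with an edgeR adjusted p of 1.00. Between gates 5 of 8 genes tested were higher in Endothelial wells, against 9.57% of 11579 genes, and 0 of 8 were lower, against 9.55%. The 5 are the adhesion molecules, the gates were set on the adhesion molecule Cd31 itself, and the median log2 difference was 2.94 over the 8 and 0.04 over all genes. Icam2, Sele and Selp had 5, 1 and 26 counts in the DoubleNegative gate. They had enough counts for a test only through the Endothelial sums, so their direction was fixed in advance. Ccl2, with 1167 DoubleNegative counts and 1 Endothelial count, was not tested, so the 0 lower genes do not cover it.

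**Figure D5:**
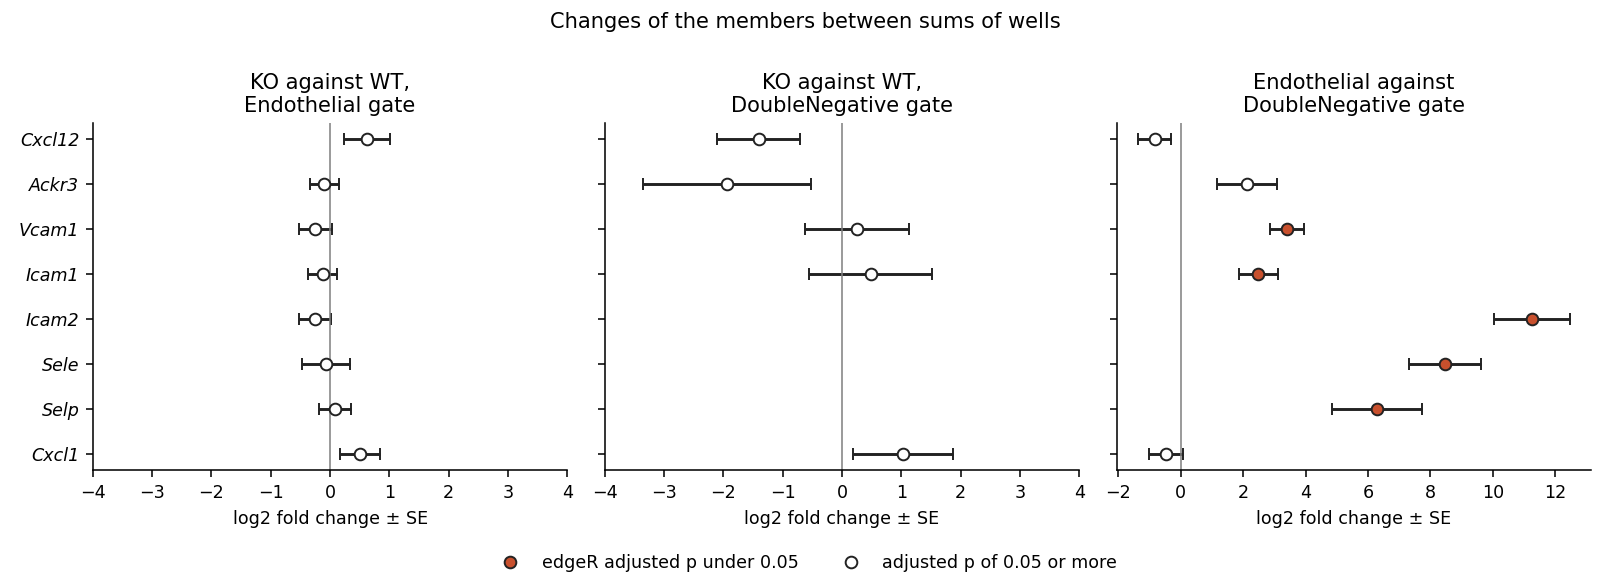
Log2 fold changes with standard errors from edgeR for KO against WT in each gate and for Endothelial against DoubleNegative wells, filled where the adjusted p was under 0.05. The genotype changes in Endothelial wells lie between -0.25 and 0.62, and the 5 filled points are Vcam1, Icam1, Icam2, Sele and Selp between gates. Genes with too few counts for a test have no point.

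Among other genes of the same routes none passed between genotypes in Endothelial wells, as for all genes tested. The counts were 0 of 7 other chemokines tested, 0 of 4 chemokine receptors and 0 of 20 further genes of leukocyte adhesion and transmigration. They were 0 of 29 genes of the NF-kappaB pathway and cytokine receptors and 0 of 22 transducers of the Cxcl12 axis. For MHC class II and interferon-gamma genes and for dissociation-induced genes they were 0 of 15 each. In this order the median log2 changes of the lists were -0.12, 0.51, -0.13, -0.04, 0.16, -2.15 and -0.75. The lists did not move alike: in each of the last 2, 1 gene lay above and 14 below 0. The other chemokines with the highest levels were Cxcl16, the membrane-bound ligand of Cxcr6, at 123 and 119 CPM in WT and 98.6 and 121 CPM in KO, and Cx3cl1 (fractalkine), at 129 and 57.6 CPM in WT and 130.2 and 90.5 CPM in KO. Cxcl10, which interferon-gamma induces, was at 0.93 and 40.9 CPM in WT and 0.13 and 0 CPM in KO, with a count in 1.04% of Endothelial wells, so that the WT preparation 2 value rests on few wells. That sum also had the highest level of dissociation-induced genes among Endothelial sums (6746 CPM against 2925 to 3764). Besides Ackr3, the chemokine-binding receptors with the highest mean levels in Endothelial sums were Ccrl2 (120.4 and 105 CPM in WT, 79.4 and 84.4 CPM in KO), Ackr4 (13.8 and 9.97 against 33.1 and 40.4 CPM) and Ackr1 (51.4 and 0 against 8.37 and 15.3 CPM). Ackr1 rested on 1.78% of wells. Ackr4, a scavenger of Ccl19 and Ccl21, was thus higher in both KO sums than in both WT sums, without passing the test (log2 change 1.64, SE 0.41, edgeR adjusted p = 1.00).

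The counts between gates stand against 9.57% of all genes higher and 9.55% lower in Endothelial wells. Genes nearly absent from 1 gate, such as Ackr4, had enough counts for a test only through the other gate, which fixed their direction. Cx3cl1 was the 1 of 6 other chemokines that was higher in Endothelial wells (log2 change 2.97, edgeR adjusted p = 0.00864), with none lower. Ackr4 (12.06, adjusted p = 0.00144, against DoubleNegative sums all at 0) and Ccrl2 (2.51, adjusted p = 0.0233) were 2 of 3 chemokine receptors. Of 20 further adhesion and transmigration genes 11 were higher, among them the junction genes Esam (4.23), F11r (5.92) and Jam2 (4.23). Pecam1 (5.79), also among the 11, encodes Cd31, on which the gates were set, so its direction was fixed by the sort. The 5 that were lower were Alcam (-3.09), Aoc3 (-4.95), Cd44 (-2.40), Jam3 (-3.36) and Mcam (-2.24). Of 29 NF-kappaB and cytokine receptor genes 3 were higher, Il6st (1.41), Tlr2 (3.56) and Tnfrsf1a (1.31), the last a receptor of TNF, a share near that of all genes. Of 19 transducers of the Cxcl12 axis 6 were higher, among them Arrb1 (2.94), a beta-arrestin that activated Ackr3 recruits, and Rgs3 (3.43), and 5 were lower, Adm (-6.11), Gnai1 (-6.20), Rgs4 (-6.35), Rgs5 (-6.46) and Sdc4 (-2.23). Adm encodes adrenomedullin, another ligand that Ackr3 binds, and its receptor genes Calcrl (2.51) and Ramp2 (4.72) were on the endothelial side. All these values are log2 differences that passed the edgeR test. Of 13 MHC class II and interferon-gamma genes 10 were higher and of 15 dissociation-induced genes 6 were lower in Endothelial wells. Among markers, 6 of 8 endothelial genes (Pecam1 again among them) and 1 of 1 lymphatic endothelial gene were higher. Lower were 6 of 6 smooth muscle, 6 of 7 fibroblast and 3 of 3 pericyte genes (Rgs5 among them). None was called of 2 Schwann cell genes, and no leukocyte, mesothelial or erythroid gene had enough counts.

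The genes most like each of the 10 across Endothelial wells were ranked by Spearman's rho of CPM within each of the 4 sums, averaged over sums, among 7272 genes found in at least 20% of wells, among them 7 of the 10. Wells of a sum share a plate and differ in depth, and the values are descriptions. Closest to Cxcl12 were Thbs1 (thrombospondin 1, mean rho 0.41, range 0.38 to 0.44), Edn1 (endothelin 1, 0.40, 0.32 to 0.61), Emcn (0.38), Acta2 (0.37) and Fmo1 (0.37), all of which stayed among the first 5 after thinning. Ackr3 was closest to 1500015O10Rik (0.46, 0.32 to 0.58), Serpinb6b (0.42), Fstl1 (0.41), Lhfp (0.39) and Bmp4 (0.38). Icam2 was closest to Klk10 (0.48, 0.28 to 0.57), Gja5 (connexin 40, 0.42), Emp2 (0.41), Calml4 (0.37) and Cytl1 (0.37). Vcam1 (Mall, 0.28), Icam1 (Sfrp1, 0.31), Selp (Nt5e, 0.30) and Cxcl1 (Gkn3, 0.23) had lower leading values, and the second gene for Vcam1 was the interferon-inducible Ifi47 (0.28). Among the 10 genes themselves, the pairs of the 7 found in enough wells ranged from -0.20 for Cxcl12 with Icam2 (range -0.33 to -0.09, negative in all 4 sums) to 0.25 for Vcam1 with Selp (0.08 to 0.36, positive in all 4).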

How the data were processed

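Single cells were sorted into plates and made into Smart-seq2 libraries. The deposited counts per gene were made by the authors with STAR 2.7.7a (GRCm38 with spike-ins and EYFP), removal of duplicates with Picard 2.22.0 and HTSeq 0.9.1. The annotation release and strand setting are not given in the sources used here. Of all deposited counts 51.9% fell on genes, and 1.25% on 92 spike-ins and 46.9% on 5 summary lines that were left out, as were 240 wells under 20000 gene counts or 500 genes. Wells were summed by genotype, gate and preparation. Sums were compared with the quasi-likelihood test of edgeR 4.0.16 (TMM, Benjamini-Hochberg adjusted over all genes tested, threshold 0.05), after tests on simulated data, and with DESeq2 1.42.0. Wells were clustered with Seurat 5.3.0 (2000 variable genes without the 10, 30 components, resolution 0.5), and no doublet caller was run. Gene models are GENCODE M21.

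The labels number the sorts of each genotype and do not state that WT and KO of the same number were sorted together. Pairing by this number was thus used only as an alternative. Between WT and KO sums of the same number, deviations from the group means correlated by 0.140 in Endothelial and 0.0897 in DoubleNegative sums. With 2 sums per group the range of depths, from 926398 to 94881185 counts, limits the smaller sums most. The genes described are the 10, all members of the lists in counts, and for likeness the 5 genes of highest mean rho. The members, lists and tests were chosen with earlier results of these data known. The alternatives were a preparation block, other size factors, no filter, deeper or thinned wells, wells whose label and cluster matched, other clusterings and leaving out each sum.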

Additional observations from a re-analysis of the deposited data

How the results depend on the processing

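The number of genes called between genotypes was the least stable result. In Endothelial wells 0 genes were called, against 1 with the replicate block, 1 with DESeq2's size factors in edgeR, 1 with wells whose label and cluster were of the same kind, 8 with wells thinned to 20000 counts, 55 with DESeq2, 104 without the filter on low counts, and 5 to 311 with 1 sum left out (311 without WT preparation 1 and 221 without WT preparation 2). In DoubleNegative wells 0 became 24 without the filter, 6 with DESeq2 and 0 to 79 with 1 sum left out, and for the interaction 163, 49 and 0 to 42. Between gates, 2214 genes became 1798 to 2626 with 1 sum left out. The cause was not tested. Of the 10 genes, none that could be tested between genotypes was called under the settings that keep all sums. The replicate block changed no call of the 10 in any comparison.

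Small changes turned sign. In Endothelial wells these were Icam1 (0.11) and Cxcl1 (-0.39) with thinned wells and Sele (0.0098) with wells of 100000 counts, and in DoubleNegative wells Vcam1 (-0.0493), Icam1 (-0.16) and Cxcl1 (-0.16) with thinned wells. With 1 sum left out the log2 change of KO ranged from -0.25 to 0.0502 for Ackr3, -0.60 to 0.037 for Vcam1, -0.42 to 0.39 for Sele and -0.16 to 0.29 for Selp in Endothelial wells. In DoubleNegative wells it ranged from -7.75 to 0.62 for Ackr3, -0.53 to 2.57 for Vcam1, -1.68 to 2.56 for Icam1 and -0.12 to 2.68 for Cxcl1. The difference of Cxcl1 between gates ranged from -0.79 to 0.18. Of 272 alternatives to the tests of the 10 genes, 250 kept direction and call, 17 reversed, 4 gained a call and 1 lost it. Levels without the Cd74 and H2-Aa wells were an alternative chosen after seeing the data. Shares of wells with a count moved in 45 of 240 alternatives, which counted deeper wells, thinned wells or a higher number of counts, levels by cluster in 3 of 210 and likeness in 7 of 70. With 2 sums per genotype, plates that differ between genotypes in preparation 1 and no molecular identifiers, depth and animal numbers limit all genotype comparisons.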
